A study of Mus musculus with 30 samples.

Results

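The genes described here are 32 genes of fatty acid oxidation and targets of the nuclear receptor PPAR alpha, listed by symbol: 16 enzymes and carriers of mitochondria, 8 proteins of peroxisomes and 8 others. Crat was counted as mitochondrial and Eci2 and Slc27a2 as peroxisomal, although each of these proteins has further locations. Of the 32, 31 had a probe annotated with their symbol, and the probe with the highest mean over all arrays stood for each. Of these, 29 were tested, among 12941 genes tested in all: 15 mitochondrial, 8 peroxisomal and 6 other genes. Acsl1 was not analysed here. Cpt1a and Vnn1 were not tested, because the signal of their probes stayed near background.

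Fatty acids are activated to acyl-CoA and shortened by repeated rounds of oxidation, hydration, a further oxidation and thiolysis. Mitochondria take long chains up through carnitine (Cpt1a, Slc25a20, Cpt2) and oxidise most of them, while peroxisomes handle very long and branched chains and bile acid precursors with enzymes of their own. PPAR alpha binds fatty acids and, with the partner RXR, raises the transcription of many of these genes. It is active in enterocytes, the absorptive cells of the small intestine, which take in dietary fat.

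RNA came from scrapings of the jejunal mucosa of male C57BL/6 mice aged 11 to 12 weeks, and was measured on 30 Illumina mouse whole-genome beadchips. The mice were not fasted and each received a single intraperitoneal injection of exendin-4 (Ex-4, 10 nmol/kg), of recombinant human keratinocyte growth factor (KGF/Fgf7, 1 mg/kg) or of phosphate-buffered saline (PBS), the vehicle. Ex-4 activates the GLP-1 receptor, and Fgf7 is an epithelial growth factor. The jejunum was collected 1 h (n = 3 per group), 5 h (n = 4 per group) or 20 h (n = 3 per group) after injection, which gave 9 groups. All groups share strain, sex, age, a cycle of 12 h light and 12 h dark and acclimation for 2 weeks. The scrapings are bulk samples of a 2 cm piece and hold epithelium together with other cells of the mucosa.

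Across genes, which are not independent replicates, r between arrays within a group was 0.988 to 0.996. Of 12 genes listed as enterocyte markers, 11 were tested and each was above background on all 30 arrays. The probe of the other, Fabp2, peaked at 7.06, below the level of 7.19 used here as the upper limit of background, although Fabp2 is known as an abundant enterocyte gene. A probe at background therefore does not show that its gene is silent. Of the hepatocyte genes, Alb and Fgb were at background on every array, while Apoh was above it on 1, Serpina1a on 17 and Ttr on 30. Of the fat cell genes with a probe, Fabp4 was at background on every array. Plin1 was above it on 1 array, Retn on 3, Lep on 5, Car3 on 6, Adipoq on 10, and Cidec and Lipe on 30. On 4 arrays the centred mean of the 15 smooth muscle genes exceeded 0.5: PBS 1 h replicate 3 (2.04), PBS 5 h replicate 3 (2.07), Ex-4 5 h replicate 1 (0.90) and Fgf7 5 h replicate 2 (1.22). Calls that were lost without these arrays are named as such.

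Values are the deposited log2 signals, so a difference of 1 is a factor of 2, and signals of different probes do not rank the genes. A gene passed a comparison when its adjusted p, from limma with the Benjamini-Hochberg method over the 12941 genes, was under 0.05. The 15 mitochondrial genes tested had mean signals from 7.38 (Acot2) to 12.79 (Acadm), the 8 peroxisomal genes from 8.11 (Decr2) to 13.74 (Acaa1a), and the 6 others from 9.24 (Plin2) to 14.80 (Acsl5). Of the 29 genes, 28 lay above the background limit on all 30 arrays and Acot2 on 27. The highest signal of Cpt1a, the gene of the carnitine transferase that controls entry into mitochondria, was 7.20, and that of Vnn1, a pantetheinase, was 7.22. Across arrays, Angptl4 and Pdk4 spanned the widest ranges of the 29, 2.56 and 2.07, and Acsl5 the narrowest, 0.27.

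Over the 9 groups, 8 of the 29 genes passed limma's F-test, against 6.02% of all genes tested. These were the mitochondrial genes Acaa2 and Eci1, the peroxisomal genes Acaa1b, Hsd17b4 and Pex11a, and the others Angptl4, Creb3l3 and Pdk4. The smallest adjusted p-values of the F-test belonged to Angptl4 (0.000329) and Acaa1b (0.000588). Without the 4 arrays high in smooth muscle genes 5 passed, namely Acaa1b, Angptl4, Creb3l3, Hsd17b4 and Acaa2. Leaving out Ex-4 20 h replicate 1 or replicate 3 also left 5. The map of group means shows where these genes moved.

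**Figure D1:**
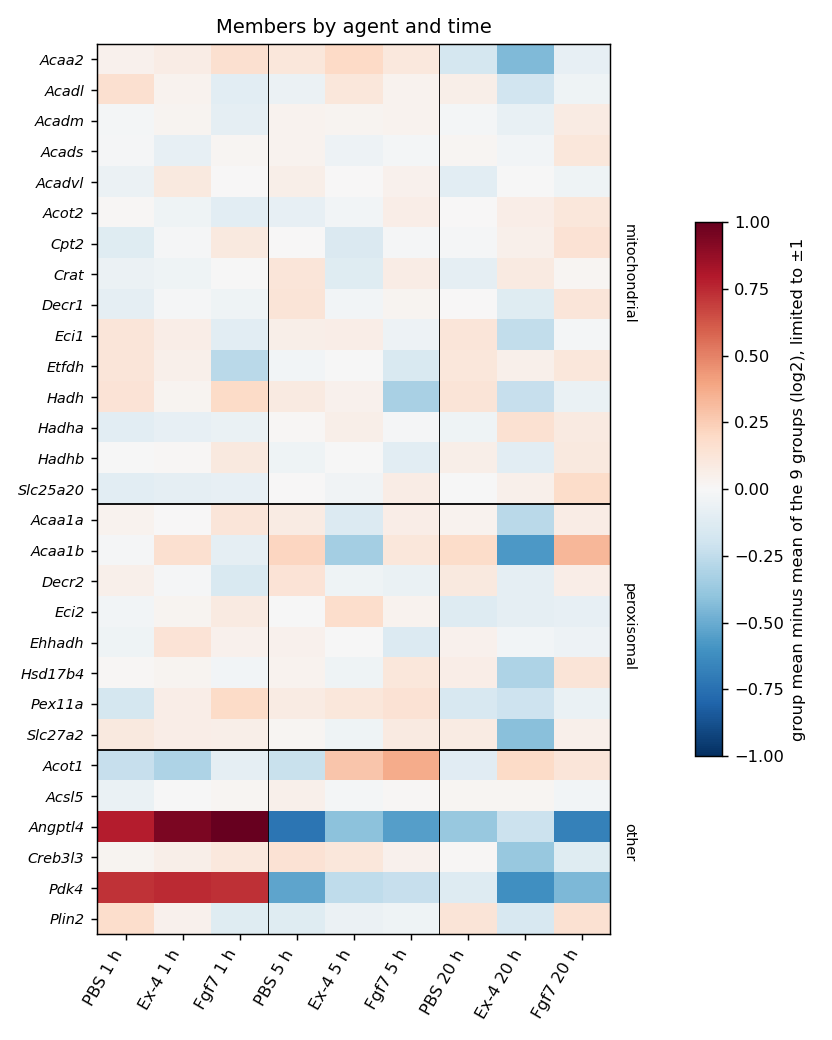
Group means of the 29 genes tested (vertical axis, mitochondrial, peroxisomal and other genes apart) in the 9 groups (horizontal axis), each as the log2 difference from the gene's mean of the 9 groups; red is higher, blue lower, and colours stop at 1 in either direction. Angptl4 and Pdk4 are red in all 3 groups at 1 h, and Acaa1b, Slc27a2, Hsd17b4, Eci1, Creb3l3 and Acaa2 are blue at 20 h after Ex-4.

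Against PBS at 20 h, 5 of the 29 genes fell after Ex-4 and 0 rose, where 2.35% of all genes passed, 1.32% lower and 1.03% higher. They were 3 of the 8 peroxisomal genes (Acaa1b, Hsd17b4 and Slc27a2), 1 of the 15 mitochondrial genes (Eci1) and Creb3l3 among the others. The falls were between 1.29-fold and 1.70-fold. In bulk mucosa fewer cells of a type and less RNA per cell cannot be told apart.

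Acaa1b, 1 of a pair of peroxisomal thiolase genes that carry out the last step of each round, read 10.93, 10.80 and 10.91 in the PBS arrays and 10.01, 10.24 and 10.10 in the Ex-4 arrays. The 3 Ex-4 arrays lay below every PBS array. The log2 difference was -0.76 ± 0.14 (SE, n = 3 per group; limma, adjusted p = 0.00216). Its close relative Acaa1a read 13.52, 13.62 and 13.27 after Ex-4 and 13.72, 13.65 and 13.93 after PBS, also without overlap. The difference of Acaa1a was -0.30 ± 0.10, which did not pass (limma, adjusted p = 0.123). The probe sequences are not used here, so how far each probe tells these paralogs apart is uncertain.

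Hsd17b4 encodes the multifunctional enzyme of the middle steps of peroxisomal oxidation. It read 13.11, 13.10 and 13.02 after PBS and 12.70, 12.75 and 12.66 after Ex-4, with no overlap and a difference of -0.38 ± 0.07 (n = 3 per group; limma, adjusted p = 0.00297). The same gene read 13.15, 13.12 and 13.17 in the Fgf7 arrays of that time. All other arrays of the study were at 12.85 or above, so the 3 Ex-4 arrays at 20 h were the lowest 3 of the 30. Hsd17b4 passed in all 6 fits without 1 array and was lost when only the groups compared were fitted (limma, adjusted p = 0.0663). For Acaa1b, the lowest value outside the Ex-4 groups was 10.34, after Fgf7 at 1 h. The Ex-4 arrays at 20 h all lay below it (highest 10.24). Those at 5 h lay on both sides of it (10.21 to 10.60), and those at 1 h above it (lowest 10.77).

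Slc27a2 encodes an acyl-CoA synthetase and transporter for very long chains. It read 12.68, 13.01 and 12.81 after PBS and 11.98, 12.65 and 12.36 after Ex-4, a difference of -0.50 ± 0.13 (n = 3 per group; limma, adjusted p = 0.0417). The groups did not overlap, but the gap between Ex-4 replicate 2 and PBS replicate 1 was small. A second probe of Slc27a2 gave -0.54. The call was lost when PBS replicate 2 or 3 or Ex-4 replicate 1 or 3 was left out (limma, highest adjusted p 0.38). It was also lost without the 4 arrays high in smooth muscle genes, none of which is in the groups compared (limma, adjusted p = 0.065), without a filter on dim probes, with background subtracted and with only the groups compared, so Slc27a2 passed in 6 of 11 alternatives. The difference lay between -0.66 and -0.33 in the fits without 1 array.

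Among the mitochondrial genes, Eci1, an isomerase needed for unsaturated chains, read 11.26, 11.50 and 11.22 after PBS and 10.91, 11.00 and 10.97 after Ex-4. The Ex-4 arrays were the lowest 3 of the 30 arrays, and the difference was -0.37 ± 0.08 (n = 3 per group; limma, adjusted p = 0.0121). Leaving out PBS replicate 2 or Ex-4 replicate 1 lost the call (limma, highest adjusted p 0.13). The dehydrogenases that start each round did not pass, and their differences were -0.25 for Acadl, -0.05 for Acadm, -0.04 for Acads and 0.10 for Acadvl. Hadha and Hadhb, the subunits of the mitochondrial trifunctional protein, had differences of 0.20 and -0.17.

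Creb3l3 encodes a membrane-bound transcription factor of liver and intestine that acts in lipid metabolism. It read 12.27, 12.32 and 12.56 after PBS and 11.96, 12.10 and 11.93 after Ex-4. The groups did not overlap, and the difference was -0.38 ± 0.10 (n = 3 per group; limma, adjusted p = 0.0282). It passed in 2 of the 6 fits without 1 array; those without PBS replicate 2 or 3 or Ex-4 replicate 1 or 3 lost it (limma, highest adjusted p 0.203). Plin2, a coat protein of lipid droplets, had a difference of -0.29 ± 0.12 and did not pass (limma, adjusted p = 0.283).

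By compartment, 7 of the 8 peroxisomal genes lay below 0 at 20 h after Ex-4, with a median log2 difference of -0.24. Of the 15 mitochondrial genes 9 lay below 0, with a median of -0.05, and of the 6 others 3, with a median of -0.14. The median over all genes tested was 0.01, and 53.9% of them lay above 0. The peroxisomal genes nearest to 0 were Eci2 (0.04), Pex11a (-0.05) and Ehhadh (-0.08). The plot of differences at 20 h sets the genes side by side.

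**Figure D2:**
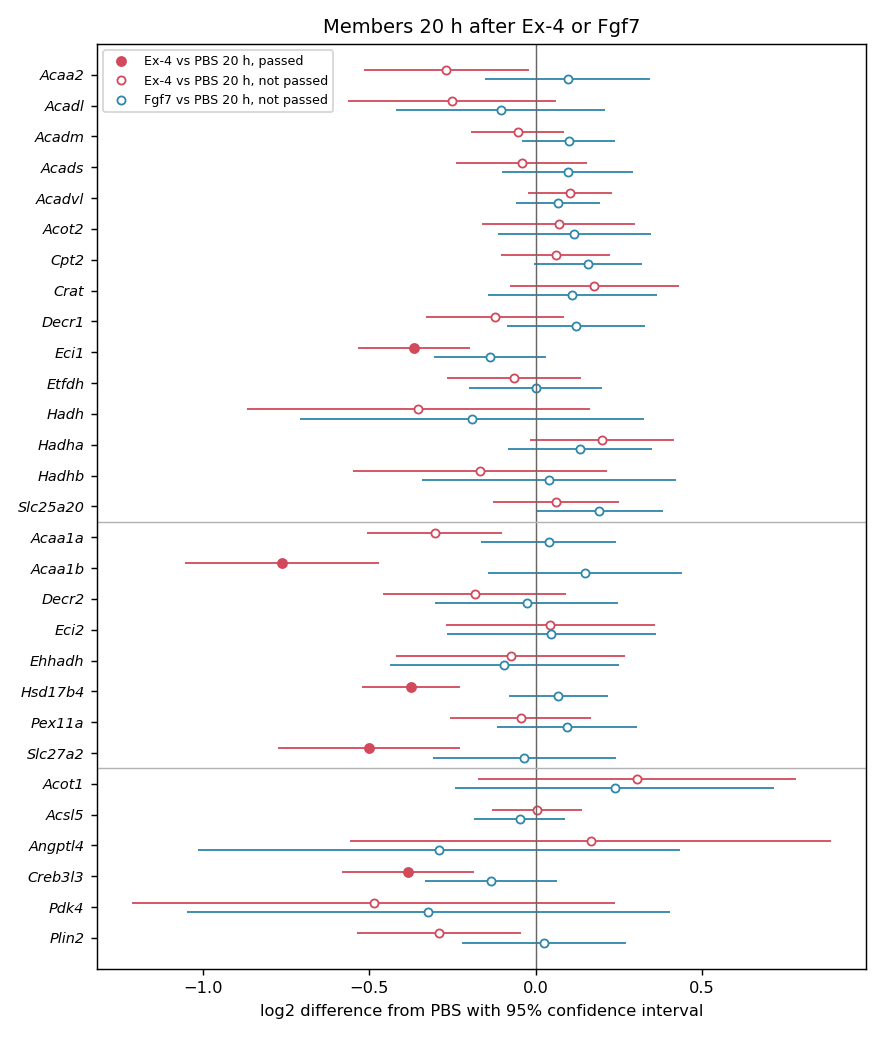
Log2 differences from PBS at 20 h (horizontal axis) for the 29 genes (vertical axis; mitochondrial at the top, peroxisomal in the middle, others at the bottom), red for Ex-4 and blue for Fgf7, with 95% confidence intervals from limma and filled points for genes that passed. The 5 filled points are Eci1, Acaa1b, Hsd17b4, Slc27a2 and Creb3l3 after Ex-4; both agents are set against the same 3 PBS arrays.

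Enterocyte markers were also lower in these arrays. Of the 11 measured, 8 lay below 0 at 20 h after Ex-4 with a median of -0.14, and 1 fell, Lct, the lactase gene (-0.63 ± 0.13; limma, adjusted p = 0.00405). Their centred mean was between -0.25 and -0.09 in the 3 Ex-4 arrays and between -0.06 and 0.11 in the PBS arrays. The part of enterocyte content in the differences above was not tested. The smooth muscle genes had a median of -0.07 in the same comparison, and 0 of 15 passed. Of the other marker lists, 1 of 6 goblet genes was higher and 1 of 4 exocrine pancreas genes lower, and 0 passed of the adipocyte (6 tested), crypt (5), Paneth (4), hepatocyte (2), plasma and B cell (3), T cell (2), macrophage (4) and fibroblast (5) genes. Without Ex-4 20 h replicate 1 or PBS 20 h replicate 2 the count of genes that fell was 2, Acaa1b and Hsd17b4, which passed in all 6 fits without 1 array.

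The sequences before 4 of the 5 genes that fell are shown because these genes fell at 20 h after Ex-4. Hsd17b4 had no promoter entry in the set used here, so its promoter was not searched. PPAR alpha and RXR bind a pair of half-sites, AGGTCA, repeated in the same direction with any 1 base between them, and this motif was searched on both strands. Each line gives the 250 bases before the transcription start, 5′ to 3′ on the gene's strand, from RefSeq on build GRCm38.p6. Capitals mark the window closest to the motif where it had at most 3 mismatches to the 12 fixed bases. Acaa1b is at chr9:119157094-119157343 (- strand), Eci1 at chr17:24426433-24426682 (+ strand), Slc27a2 at chr2:126552774-126553023 (+ strand) and Creb3l3 at chr10:81092592-81092841 (- strand).
Acaa1b: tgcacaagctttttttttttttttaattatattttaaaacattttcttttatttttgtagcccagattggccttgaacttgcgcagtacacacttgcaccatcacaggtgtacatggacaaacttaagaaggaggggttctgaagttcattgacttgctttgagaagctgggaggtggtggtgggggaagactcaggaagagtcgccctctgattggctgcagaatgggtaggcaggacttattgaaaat
Eci1: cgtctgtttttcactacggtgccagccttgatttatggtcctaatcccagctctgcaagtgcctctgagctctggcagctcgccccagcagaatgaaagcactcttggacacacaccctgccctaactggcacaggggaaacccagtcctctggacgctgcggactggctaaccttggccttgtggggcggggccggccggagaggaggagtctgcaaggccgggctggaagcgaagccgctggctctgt
Slc27a2: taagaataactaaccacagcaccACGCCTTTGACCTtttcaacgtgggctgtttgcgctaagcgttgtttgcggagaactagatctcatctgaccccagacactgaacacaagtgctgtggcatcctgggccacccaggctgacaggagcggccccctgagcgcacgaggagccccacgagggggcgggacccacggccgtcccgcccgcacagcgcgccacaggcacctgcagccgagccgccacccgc
Creb3l3: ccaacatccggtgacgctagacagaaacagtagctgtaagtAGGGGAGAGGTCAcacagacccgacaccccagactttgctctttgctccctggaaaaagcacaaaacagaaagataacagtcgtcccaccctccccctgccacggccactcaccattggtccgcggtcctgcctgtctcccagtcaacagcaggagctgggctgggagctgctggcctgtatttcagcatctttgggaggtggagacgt
RefSeq gives Creb3l3 more than 1 start. Before the start shown, the window of Creb3l3 begins 209 bases upstream, on the gene's strand, with 2 mismatches. Before its other start, at chr10:81098873-81099122, the closest window had 4 mismatches, outside the limit. In Slc27a2 it starts 227 bases before the start, on the other strand, with 3 mismatches. Acaa1b and Eci1 had no window within that limit, which says only that these letters are not in these 250 bases. Of the 26 listed genes with a promoter entry 7 had such a window (26.9%), against 23.7% of 27025 genes, and with at most 2 mismatches 2 did (7.69%, Creb3l3 and Plin2), against 3.72%. A match of letters is a description and shows no binding.

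Beyond the listed genes, 41 other genes of lipid oxidation and PPAR signalling were tested. At 20 h after Ex-4, 2 fell and 0 rose, where 2.35% of all genes passed, 1.32% lower and 1.03% higher. Of the 41, 26 lay below 0, with a median of -0.06, where all genes had a median of 0.01 and 53.9% lay above 0. Retsat, which saturates retinol, lay between 11.95 and 12.35 in the 3 Ex-4 arrays and between 13.07 and 13.14 in the PBS arrays (-0.97 ± 0.12, n = 3 per group; limma, adjusted p = 1.39e-05). Ephx2, which encodes a soluble epoxide hydrolase found in peroxisomes and cytosol, was between 11.99 and 12.37 against 12.62 to 12.88 (-0.57 ± 0.11; limma, adjusted p = 0.00234). Ppara itself, the receptor gene, read between 7.10 and 7.39 after Ex-4 and between 7.32 and 7.56 after PBS and did not pass (-0.16 ± 0.10; limma, adjusted p = 0.566). Its probe lies close to the background limit.

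**Figure D3:**
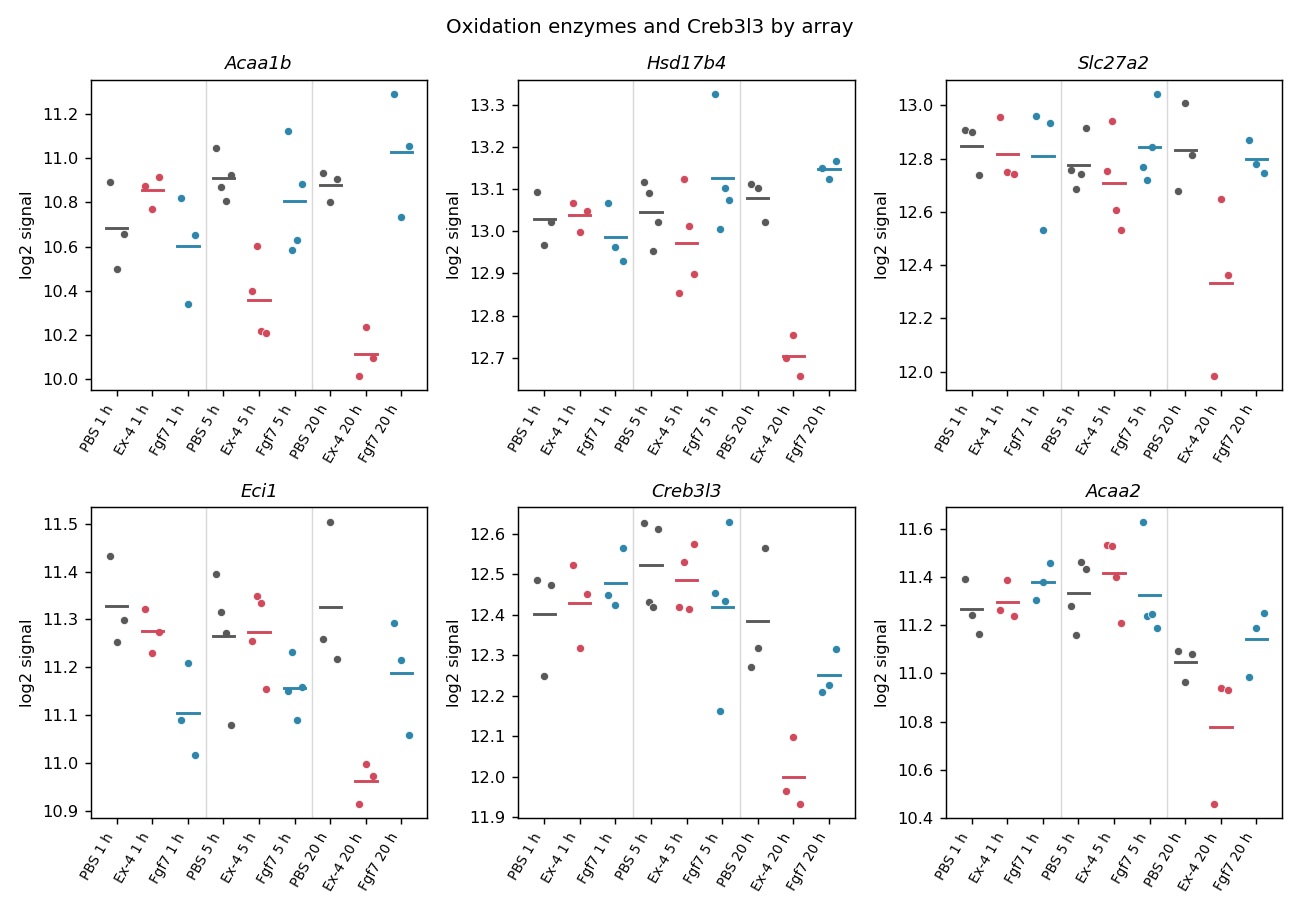
Log2 signal (vertical axes) of 6 genes on each array (points) in the 9 groups (horizontal axes), with group means as bars; the vertical axes differ and do not start at 0. For Hsd17b4, Eci1 and Creb3l3 the 3 Ex-4 arrays at 20 h lie below all other arrays, and Acaa1b is lower in the Ex-4 groups at both 5 h and 20 h. The group mean of Acaa2 is lowest at 20 h after each agent, and after Fgf7 its arrays at 5 h and 20 h overlap.

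Against PBS at 5 h, 1 of the 29 genes fell after Ex-4, Acaa1b, and 0 rose, where 0.912% of all genes passed, 0.525% lower and 0.386% higher. Acaa1b read 11.05, 10.87, 10.81 and 10.92 in the PBS arrays and 10.40, 10.60, 10.22 and 10.21 in the Ex-4 arrays. The groups did not overlap, and the difference was -0.55 ± 0.12 (SE, n = 4 per group; limma, adjusted p = 0.0227). The next smallest p-values belonged to Acaa1a (-0.22 ± 0.09, adjusted p = 0.289) and to the thioesterase gene Acot1 (0.50 ± 0.20, adjusted p = 0.313), which did not pass limma's test. Acaa1b did not pass without the 4 arrays high in smooth muscle genes. Omitting PBS replicate 1 or 4 or Ex-4 replicate 3 or 4 lost the call as well (limma, highest adjusted p 0.127).

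Against PBS at 1 h, Ex-4 gave 0 calls among the 29 listed genes in limma's fit and 0% among all genes, and 2 of the 29 had an unadjusted p under 0.05 against 2.9% of all genes. The smallest p-values were those of Acadvl (0.16 ± 0.06), the very long chain dehydrogenase, of Pex11a (0.24 ± 0.10), a membrane protein that drives peroxisome division, and of Cpt2 (0.11 ± 0.08), each with an adjusted p of 1.00 from limma. Acaa1b read 10.87, 10.77 and 10.92 after Ex-4 and 10.89, 10.50 and 10.66 after PBS, with overlap. The other 41 pathway genes had 0 that passed at 1 h and 0 at 5 h. At 5 h 31 of the 41 lay below 0, with a median of -0.09, where all genes had a median of 0.002 and 50.9% lay above 0. At 5 h after Ex-4 the enterocyte markers had a median of -0.09, with 8 of 11 below 0, and the smooth muscle genes one of -0.22, with 0 of 15 above 0. All 4 Paneth and all 4 macrophage genes lay above 0. In these 4 lists 0 genes passed, and their part in the result for Acaa1b was not tested.

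Whether the Ex-4 effect itself differed between 20 h and 5 h was tested as a difference of differences. For the 29 genes 0 passed limma's test, against 0.966% of all genes, and 8 had an unadjusted p under 0.05, against 10.5% of all genes. The changes of the 8 peroxisomal genes lay between -0.44 and -0.0007, with a median of -0.11, where all genes had a median of 0.01 and 52.2% lay above 0. The 6 other genes had a median of -0.27, with 5 below 0. For the 15 mitochondrial genes the median was 0.01, with 7 below 0. The 11 enterocyte markers had a median of -0.10, with 4 above 0, and their part was not tested. The smallest p-values belonged to Eci1 (-0.37 ± 0.11, adjusted p = 0.107), Hsd17b4 (-0.30 ± 0.10, adjusted p = 0.149) and Creb3l3 (-0.35 ± 0.13, adjusted p = 0.255) in limma's test. For Acaa1b the calls at both times are therefore not shown to differ in size. Among the 41 pathway genes Retsat passed (-0.92 ± 0.16; limma, adjusted p = 0.00248), with 12.62 to 13.07 after Ex-4 and 12.82 to 13.04 after PBS at 5 h.

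After Fgf7, 0 of the 29 genes passed against PBS at 1 h, 5 h or 20 h, where 0.00773%, 0.216% and 0.0464% of all genes passed limma's test. The 29 genes had 5 unadjusted p-values under 0.05 at 1 h, 1 at 5 h and 1 at 20 h, against 7.65%, 6.89% and 4% of all genes. At 1 h Etfdh, which passes electrons from acyl-CoA dehydrogenases to the respiratory chain, read 10.66, 10.78 and 10.47 after Fgf7 and 11.10, 11.05 and 10.93 after PBS. The groups did not overlap and the difference was -0.39 ± 0.10, but the adjusted p was 0.476 (limma), and its dimmer probes gave 0.23 and 0.03. Pex11a read 11.28, 10.94 and 10.98 after Fgf7 and 10.77, 10.64 and 10.67 after PBS (0.37 ± 0.10; limma, adjusted p = 0.531). Cpt2, the inner carnitine transferase, had a difference of 0.22 ± 0.08 (limma, adjusted p = 0.625).

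At 5 h after Fgf7 the smallest p-values were those of Acot1 (0.59 ± 0.20, adjusted p = 0.396), the dehydrogenase gene Hadh (-0.41 ± 0.22, adjusted p = 0.775) and the reductase gene Decr2 (-0.21 ± 0.12, adjusted p = 0.806), all from limma. Acot1 read 11.10, 10.83, 10.56 and 10.23 after Fgf7, 10.77, 10.57, 10.74 and 10.28 after Ex-4 and 10.45, 10.11, 9.91 and 9.90 after PBS. The Fgf7 and Ex-4 arrays overlapped with PBS replicate 1 only. Both comparisons share the PBS arrays. At 20 h after Fgf7 the carnitine carrier gene Slc25a20 (0.19 ± 0.09), Cpt2 (0.16 ± 0.08) and Eci1 (-0.14 ± 0.08) had the smallest p-values, each with an adjusted p of 1.00 from limma.

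The intervals bound what the data leave room for after Fgf7. At 20 h the 95% confidence interval of the difference was -0.14 to 0.44 for Acaa1b, -0.08 to 0.22 for Hsd17b4 and -0.31 to 0.24 for Slc27a2. The median of the 8 peroxisomal genes was 0.04 and that of the 15 mitochondrial genes 0.10. These compare with a median over all genes of 0.01. Of the 41 pathway genes 0 passed at any time after Fgf7. The change of the Fgf7 effect from 5 h to 20 h had 0 of the 29 genes passing, against 0% of all genes, and 0 with an unadjusted p under 0.05, against 3.7% of all genes. Its smallest p-values were those of Cpt2 (0.17 ± 0.11), Decr1 (0.22 ± 0.13) and Acaa1b (0.25 ± 0.19).

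Directly compared at 20 h, Acaa1b and Hsd17b4 were lower after Ex-4 than after Fgf7, so 2 of the 29 genes passed and 0 were higher, where 1.79% of all genes passed limma's test, 1.14% lower and 0.649% higher. Acaa1b read 11.29, 10.73 and 11.06 after Fgf7, above all 3 Ex-4 arrays, and the difference was -0.91 ± 0.14 (SE, n = 3 per group; limma, adjusted p = 0.000256). For Hsd17b4 it was -0.44 ± 0.07 (limma, adjusted p = 0.000402). Slc27a2 read 12.87, 12.78 and 12.75 after Fgf7, also without overlap, and did not pass (-0.47 ± 0.13; limma, adjusted p = 0.0754). Of the 41 pathway genes 3 were lower after Ex-4: Retsat (-0.89 ± 0.12; limma, adjusted p = 4.87e-05), Ephx2 (-0.48 ± 0.11; limma, adjusted p = 0.0129) and the thioesterase gene Acot4 (-0.45 ± 0.12; limma, adjusted p = 0.0377). Without 1 array Retsat passed in 6 of 6 fits, Ephx2 in 4 (limma, adjusted p of up to 0.154) and Acot4 in 2 (up to 0.247). Acot4 was also lost without the 4 arrays high in smooth muscle genes. Of the enterocyte markers 8 of 11 lay below 0 (median -0.12) and Lct was lower after Ex-4 (-0.70 ± 0.13; limma, adjusted p = 0.00156). Of 6 goblet genes 1 was lower (median -0.26). All 4 Paneth (median 0.36), all 4 macrophage (0.19) and all 5 fibroblast genes (0.26) lay above 0, as did 12 of 15 smooth muscle genes (0.10). Above 0 lay 3 of 5 crypt, 2 of 6 adipocyte and 1 of 3 plasma and B cell genes. Of the 2 T cell (-0.36), 2 hepatocyte (-0.16) and 4 exocrine pancreas genes (-0.07) 0 did. In the lists other than enterocyte and goblet 0 genes passed. The part of these cell types was not tested. The count of listed genes was 4 without Ex-4 20 h replicate 2, with Slc27a2 and Acaa1a added.

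At 5 h 0 of the 29 genes differed between the agents by limma's test, against 0.572% of all genes, and 3 had an unadjusted p under 0.05, against 9.76% of all genes. The smallest p-values were those of Acaa1b (-0.45 ± 0.12, adjusted p = 0.102), Hsd17b4 (-0.15 ± 0.06, adjusted p = 0.37) and Acaa1a (-0.20 ± 0.09, adjusted p = 0.398), from limma. Acaa1b read 11.13, 10.59, 10.63 and 10.88 after Fgf7, and Ex-4 replicate 2, at 10.60, overlapped with these. At 1 h 0 differed, against 0.00773% of all genes, and 2 had an unadjusted p under 0.05, against 5.73%. There Etfdh (0.33 ± 0.10, adjusted p = 0.694), Eci1 (0.17 ± 0.08, adjusted p = 0.861) and Acadm (0.12 ± 0.07, adjusted p = 0.91) had the smallest p-values in limma's test. The dimmer probes of Etfdh gave -0.22 and -0.06.

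The widest ranges among the listed genes, those of Angptl4 and Pdk4, went with the time after injection. Angptl4 encodes a secreted inhibitor of lipoprotein lipase, and Pdk4 a kinase that shuts pyruvate dehydrogenase and so spares glucose when fat is burned. Both are known targets of PPAR alpha and of fasting in mice. On the 9 arrays at 1 h, Angptl4 read between 11.02 and 11.99, with a median of 11.75, and on the 21 later arrays between 9.43 and 11.03, with a median of 10.09.

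By group, Angptl4 at 1 h read 11.02, 11.82 and 11.39 after PBS, 11.90, 11.25 and 11.55 after Ex-4 and 11.99, 11.75 and 11.82 after Fgf7. At 5 h it read 9.47, 9.64, 9.43 and 11.03 after PBS, 10.09, 10.92, 9.65 and 10.19 after Ex-4 and 10.11, 9.59, 10.02 and 10.57 after Fgf7. At 20 h it read 9.83, 10.76 and 10.14 after PBS, 10.31, 9.94 and 10.97 after Ex-4 and 10.11, 9.70 and 10.04 after Fgf7. Arrays at 1 h overlapped with later ones only through PBS 1 h replicate 1 and PBS 5 h replicate 4, at 11.02 and 11.03. The agents overlapped with each other at 5 h and 20 h.

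Pdk4 stayed within 10.84 to 11.03 on the 9 arrays at 1 h. At 5 h it read 9.41, 9.49, 9.31 and 10.58 after PBS, 9.78, 10.88, 8.96 and 10.27 after Ex-4 and 10.03, 9.71, 9.96 and 10.30 after Fgf7. At 20 h it read 9.45, 10.93 and 9.92 after PBS, 9.31, 9.74 and 9.78 after Ex-4 and 10.16, 9.62 and 9.55 after Fgf7. Of the 21 later arrays, only Ex-4 5 h replicate 2 and PBS 20 h replicate 2 reached the range seen at 1 h. The same arrays were high for Angptl4 within their groups.

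**Figure D4:**
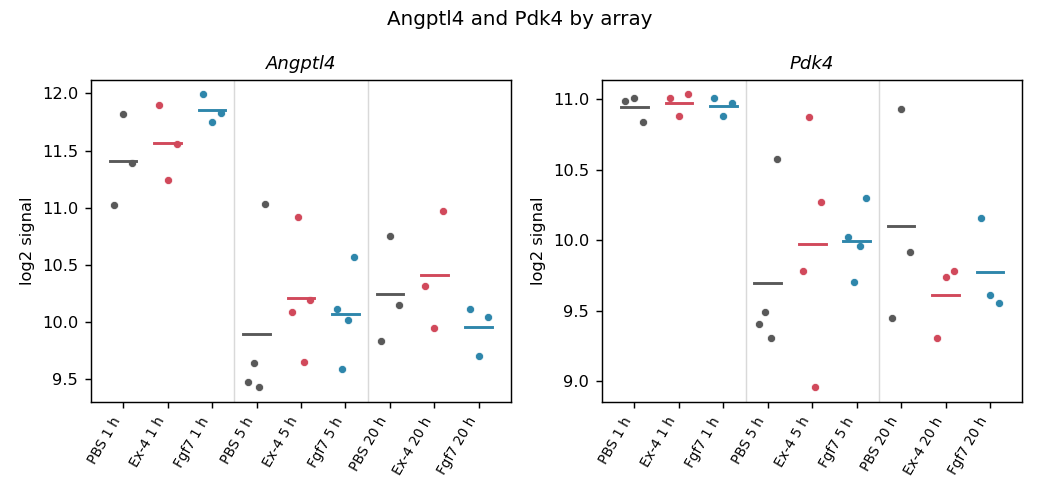
Log2 signal (vertical axes) of Angptl4 and Pdk4 on each array (points) in the 9 groups (horizontal axes), with group means as bars; the vertical axes do not start at 0. All 9 arrays at 1 h are high, at 11.02 or above for Angptl4 and 10.84 or above for Pdk4, and PBS 5 h replicate 4 stands above the other 3 arrays of its group in both panels.

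In the PBS groups alone, 0 of the 29 genes passed limma's test in any of the 3 comparisons of times, as did 0% of all genes. An unadjusted p under 0.05 was found for 5 from 1 h to 5 h, 2 from 1 h to 20 h and 4 from 5 h to 20 h, against 5.41%, 4.24% and 4.3% of all genes. Between 1 h and 5 h the differences were -1.52 ± 0.33 for Angptl4 (adjusted p = 0.396), -1.25 ± 0.33 for Pdk4 (adjusted p = 0.476) and 0.26 ± 0.10 for Pex11a (adjusted p = 0.886), with 3 arrays at 1 h and 4 at 5 h in limma's fit. PBS 5 h replicate 4 was far above the other 3 arrays of its group, and without it Angptl4 fell by 1.90 on the log2 scale (limma, adjusted p = 0.00815). That array was singled out by its high value, so leaving it out enlarges the fall by construction. Angptl4 passed in only 1 of the 7 fits without 1 array, which gave differences from -1.90 to -1.31. Between 1 h and 20 h they were -1.17 ± 0.35 for Angptl4, -0.85 ± 0.35 for Pdk4 and -0.22 ± 0.12 for Acaa2, and from 5 h to 20 h -0.17 ± 0.06 for Acadvl, -0.29 ± 0.11 for Acaa2 and -0.24 ± 0.10 for Pex11a, each with an adjusted p of 1.00 from limma. From 5 h to 20 h the second probe of Acadvl gave 0.01 and the dimmest kept probe of Pex11a 0.05, and from 1 h to 5 h that probe of Pex11a gave -0.08.

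A comparison of times averaged over PBS, Ex-4 and Fgf7, which was added after the data had been seen, uses all 30 arrays. From 1 h to 5 h 2 of the 29 genes fell and 0 rose, where 0.95% of all genes passed, 0.471% lower and 0.479% higher: Angptl4 by a log2 difference of -1.55 ± 0.19 (limma, adjusted p = 7.61e-05) and Pdk4 by -1.07 ± 0.19 (limma, adjusted p = 0.00423). For Angptl4 the difference of group means was -1.52 after PBS, -1.35 after Ex-4 and -1.79 after Fgf7. For Pdk4 it lay between -1.25 (PBS) and -0.96 (Fgf7). Acot1 had the next smallest p, with 0.35 ± 0.13 (limma, adjusted p = 0.203). Pdk4 passed in all 21 fits without 1 array but not without the 4 arrays high in smooth muscle genes (-1.20 to -0.96 over all settings, adjusted p of up to 0.0547).

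From 1 h to 20 h 4 of the 29 genes fell and 0 rose, where 3.35% of all genes passed, 1.69% lower and 1.65% higher. They were Angptl4 (-1.41 ± 0.20; limma, adjusted p = 9.71e-05), Pdk4 (-1.13 ± 0.20; limma, adjusted p = 0.0015), the mitochondrial thiolase gene Acaa2 (-0.33 ± 0.07; limma, adjusted p = 0.00644) and Creb3l3 (-0.23 ± 0.06; limma, adjusted p = 0.0216). Angptl4 changed by -1.17 after PBS, -1.16 after Ex-4 and -1.90 after Fgf7, so all agents moved the same way. For Creb3l3 the difference was -0.02 after PBS, -0.43 after Ex-4 and -0.23 after Fgf7. Creb3l3 passed in 16 of 18 fits without 1 array (limma, adjusted p of up to 0.0609), and Acaa2 in all 18. The other 3 probes of Acaa2 gave -0.17, -0.29 and -0.20, and with the mean of its probes Acaa2 did not pass (limma, adjusted p = 0.126).

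From 5 h to 20 h 3 of the 29 genes fell and 0 rose, where 6.43% of all genes passed, 3.28% lower and 3.15% higher: Acaa2 (-0.37 ± 0.07; limma, adjusted p = 0.000541), Creb3l3 (-0.26 ± 0.05; limma, adjusted p = 0.00192) and Pex11a (-0.26 ± 0.06; limma, adjusted p = 0.00453). A share of 3 of 29 is near that of all genes. Acaa2 at 20 h read 11.09, 10.97 and 11.08 after PBS, 10.46, 10.94 and 10.93 after Ex-4 and 10.99, 11.19 and 11.25 after Fgf7. At 5 h it read 11.28, 11.16, 11.46 and 11.44 after PBS, 11.53, 11.53, 11.40 and 11.21 after Ex-4 and 11.63, 11.24, 11.25 and 11.19 after Fgf7, so the times did not overlap after PBS or Ex-4 and overlapped after Fgf7. The other 3 probes of Acaa2 gave -0.33, -0.40 and -0.36 from 5 h to 20 h. Pex11a at 20 h read 10.62, 10.78 and 10.73 after PBS, 10.79, 10.72 and 10.49 after Ex-4 and 10.80, 10.66 and 10.96 after Fgf7, and at 5 h between 10.80 and 11.22 over the 3 agents.

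The fall of Angptl4 rests on 1 probe. Its other probe lay near background, above the limit on 15 of 30 arrays with a mean of 7.19, and gave -0.04 from 1 h to 5 h and -0.04 from 1 h to 20 h. With the mean of both probes the differences of Angptl4 were -0.79 and -0.72, which passed; all alternatives together gave -1.69 to -0.79 and -1.52 to -0.72. Pdk4 has 1 probe. Of the 41 pathway genes 0 passed from 1 h to 5 h, where 0.95% of all genes did. For 1 h to 20 h the share of all genes was 3.35%, 1.69% lower and 1.65% higher. From 1 h to 20 h 3 fell, Cidec, a lipid droplet protein gene (-0.29 ± 0.07; limma, adjusted p = 0.0137), Ephx2 (-0.23 ± 0.06; limma, adjusted p = 0.0342) and the coactivator gene Ppargc1a (-0.23 ± 0.06; limma, adjusted p = 0.0342). Ephx2 passed in 8 and Ppargc1a in 9 of 18 fits without 1 array, and Ephx2 was lost without the 4 arrays high in smooth muscle genes. From 5 h to 20 h 2 of the 41 fell, where 6.43% of all genes passed: Ephx2 (-0.20 ± 0.06; limma, adjusted p = 0.0308) and Retsat (-0.21 ± 0.07; limma, adjusted p = 0.0473), which passed in 14 and 5 of 21 such fits. Retsat passed in 4 of 10 alternatives there and was lost without those 4 arrays. Its averaged fall does not hold for each agent, since every PBS array of Retsat was higher at 20 h than at 5 h. The Ex-4 effect on Retsat differed between these times (-0.92). The averaged falls of Ephx2 to 20 h include its lower signal after Ex-4 at that time. Without 1 array that difference was -0.66 to -0.45 against PBS and -0.55 to -0.36 against Fgf7. In the PBS groups alone 0 of the 41 pathway genes passed from 1 h or from 5 h to 20 h, as did 0% of all genes. Changes of Ephx2 with time after Ex-4 or Fgf7 alone were not tested.

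Over the 3 agents the enterocyte markers had medians of -0.03 from 1 h to 5 h, where 5 of 11 lay above 0, and -0.11 from 1 h to 20 h, where 0 of 11 did. From 5 h to 20 h their median was -0.05, 2 of 11 lay above 0, and Slc5a1, a glucose transporter gene, fell (-0.29 ± 0.07; limma, adjusted p = 0.00793). In that comparison 2 of 6 goblet genes rose and 1 of 5 fibroblast genes fell. From 1 h to 20 h 1 of 6 goblet genes rose and 1 of 6 adipocyte genes fell. The adipocyte gene was Cidec, which is also among the pathway genes above. The smooth muscle genes had medians of 0.24, -0.32 and -0.55 in these 3 comparisons. Their part in the changes with time was not tested. The hour of day and the feeding of the mice at each collection are not described here beyond the light cycle and the absence of fasting, so time after injection and time of day cannot be told apart.

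Angptl4 and Pdk4 also varied together from array to array. Over the 30 arrays r was 0.89, and after subtraction of group means it was 0.80, the third highest of 406 pairs of listed genes, whose median was 0.14. These are descriptions over arrays that share groups, and the values of both genes on each array come from the same RNA. The plot of 1 gene against the other shows 3 later arrays that were high in both: PBS 5 h replicate 4 (11.03 and 10.58), Ex-4 5 h replicate 2 (10.92 and 10.88) and PBS 20 h replicate 2 (10.76 and 10.93).

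**Figure D5:**
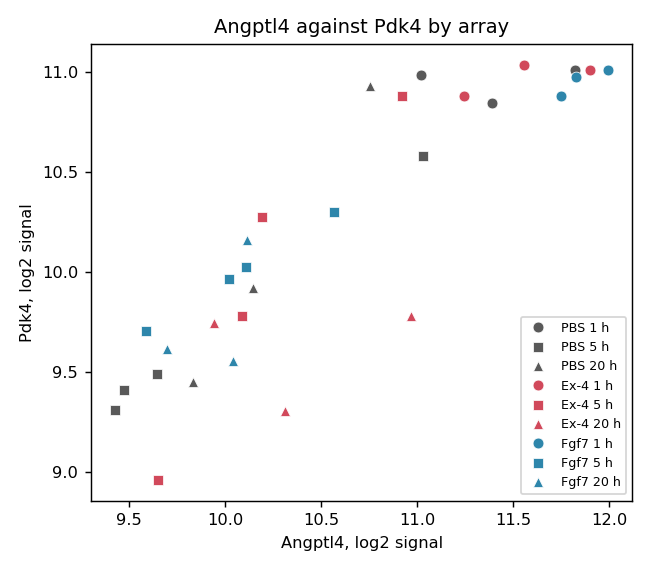
Pdk4 (vertical axis, log2 signal) against Angptl4 (horizontal axis, log2 signal), with 1 point for each of the 30 arrays; colours give the agent and symbols the time. Arrays at 1 h form the upper right group, with little spread in Pdk4 (10.84 to 11.03), and the later arrays run along a slope below them.

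Another set varied together within groups: Hadh and Hadhb of mitochondria and Ehhadh and Eci2 of peroxisomes, chosen here after their values were seen, with r between 0.69 and 0.82 for the 6 pairs after subtraction of group means (n = 30 arrays). Decr1, a mitochondrial reductase of unsaturated chains, ran the other way, with r between -0.66 and -0.55 against these 4. Hadh ranged over 1.29 within the study, from 8.94 in Ex-4 20 h replicate 1 to 10.23 in Ex-4 5 h replicate 4 and PBS 20 h replicate 3. The spread within groups was large for these genes, with an SD of 0.34 for Hadh and 0.25 for Hadhb against 0.08 for Acadm and 0.07 for Acadvl. Differences of the size found for Eci1 were therefore not detectable for Hadh: its interval at 20 h after Ex-4 was -0.87 to 0.16.

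After subtraction of group means the median r was 0.13 over 105 pairs of mitochondrial genes, 0.19 over 28 pairs of peroxisomal genes and 0.15 over 120 pairs of 1 of each. With the smooth muscle mean, r within groups ran from -0.49 for Hsd17b4 to 0.41. Of the genes that fell after Ex-4 at 20 h, Acaa1b had -0.32, Slc27a2 -0.23, Creb3l3 -0.39 and Eci1 -0.00296. None of the 4 arrays of high smooth muscle signal was taken at 20 h.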

How the data were processed

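The deposited log2 values per probe of 30 Illumina arrays were used. How the authors normalised these log2 values was not given in the sources used here. Ranked values differed between arrays by an SD of at most 0.00218, as after quantile normalisation. RNA was extracted with Trizol and labelled with a TotalPrep-96 kit, per the labels' protocols. The series also has unmapped data in 60 columns headed by bare numbers, which were not used.

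The platform annotation gave 1 symbol to 34885 of the 45281 probes, several to 18 and none to 10378; 34807 matched a RefSeq table (GRCm38.p6) by gene ID. The background limit was 7.19: the signal's mode (7.02) plus a normal quantile times the SD of values under the mode (0.0730), which a share of 0.01 of background values would pass. The 25878 probes above it on at least 3 arrays were kept, and the probe with the highest mean stood for its gene. A model with a mean for each of 9 groups was fitted with limma to all arrays (21 residual and 4.64 prior degrees of freedom), with Benjamini-Hochberg adjustment over the 12941 genes. Errors are SEs of that fit. The number of arrays limits the precision. The labels name the replicates as separate samples without stating one mouse each, so p-values measure only the spread between these samples.

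Members and gene lists were chosen with earlier results of these data known. Every listed gene that passed is named, or where fewer than 3 did, the 3 with the smallest p. Pathway genes are named where they passed (up to 6 per comparison by p), with Ppara. Values on each array are given for listed genes that passed against PBS or between agents. Other probes are given where they differed in sign or by over 0.5. Pathway genes and markers were written from general knowledge. The marker lists were smooth muscle, adipocyte, enterocyte, crypt, Paneth, goblet, hepatocyte, exocrine pancreas, plasma and B cell, T cell, macrophage and fibroblast. Alternatives left out 1 array at a time, changed the filter, the probe rule, the variance model or the arrays fitted, subtracted background, added a smooth muscle covariate or a replicate block. The code was tested on simulated data. Versions were R 4.3.3, limma 3.58.1, Python 3.11.15, pandas 2.3.3 and matplotlib 3.10.9.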

Additional observations from a re-analysis of the deposited data

Results flagged for a closer look

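In groups of 4 arrays, 5 of 87 combinations of gene and group held 1 array far from the other 3; chance marks about 1 in 20. PBS 5 h replicate 4 was high for Angptl4 (11.03, the others 9.43 to 9.64) and for Pdk4 (10.58, the others 9.31 to 9.49). Fgf7 5 h replicate 1 was high for Acaa2 (11.63, the others 11.19 to 11.25) and for Decr1 (8.56, the others 8.35 to 8.37). Ex-4 5 h replicate 2 was high for Acadl (10.05, the others 9.69 to 9.71). The Ex-4 effect on Retsat, a gene of the wider pathway, differed between 20 h and 5 h, with a log2 difference of differences of -0.92 (limma, adjusted p = 0.00248).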

How the results depend on the processing

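No result changed direction under any alternative tried. Of the counts of listed genes that passed, these moved by over 1.5 times. At 5 h after Ex-4 the count of 1 became 0 when the 4 arrays high in smooth muscle genes were left out or with only the groups compared, and 0 to 1 without 1 array. At 20 h after Ex-4 the count of 5 became 3 with background subtracted (Acaa1b, Hsd17b4 and Eci1), 1 with only the groups compared (Acaa1b), and 2 to 5 without 1 array. Ex-4 against Fgf7 gave 1 in place of 0 at 5 h with the replicate block (Acaa1b) and 2 to 4 at 20 h without 1 array. PBS 5 h against PBS 1 h gave 0 to 1, and the change of the Ex-4 effect from 5 h to 20 h 0 to 1 (Crat, without Ex-4 20 h replicate 3). From 1 h to 5 h over the agents 1 passed in place of 2 without the 4 arrays. The F-test gave 5 in place of 8 without the 4 arrays and 5 to 9 without 1 array. The fit of only the groups compared has fewer arrays to estimate the spread. The cause of the other moves was not tested. For single genes, 648 values kept their side of the threshold, 40 lost and 3 gained the call; Acaa2 from 1 h to 20 h did not pass with the mean of its probes (adjusted p = 0.126). Same-numbered arrays within a time correlated with a median r of 0.18 (from -0.18 to 0.65, 30 pairs, 22 over 0.1) and those with other numbers with -0.07 (72 pairs, 16 over 0.1), and 38 of 60 best matches had the same number. This is a hint of pairing from the data, but not every pair was over 0.1 and the labels do not state a pairing, so the numbers were not used as pairs; the replicate block changed no other call of a gene named here. It is nested in time, so no blocked value exists for comparisons of times or for the F-test.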
